A study of Mus musculus with 26 samples.

Results

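The genes described here are 10 genes that are high in fetal liver, in liver tumours or in both, and low in the healthy adult organ: Afp, H19, Igf2, Gpc3, Cd24a, Ly6d, Lgals1, Scd2, Gprc5b and Raet1d. They were chosen by symbol, through the Ensembl identifier of each row, and all 10 were found among the 47643 genes of the count table. Their messenger RNA was measured by RNA sequencing in 26 mouse libraries that form 10 groups, and each treated group was set against its own control. The series concerns drug metabolism in livers with disturbed bile flow (cholestasis).

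The 5 experiments differed in part in strain, age and feeding state. The first compared 2 libraries of whole liver from C57BL/6J wild type mice given TCPOBOP, an agonist of the nuclear receptor CAR, with 2 from mice given corn oil, all at 8 weeks of age and fed ad libitum. The labels give the time after the TCPOBOP injection as 36 h in one field and 6 h in another. The second compared whole liver of Fxr-/- Shp-/- mice, which lack the bile acid receptor Fxr and the repressor Shp, with wild type liver (3 libraries each, C57BL/6J, 12 weeks, fed ad libitum). In the third, C3H/HeN livers at 48 h after partial hepatectomy were set against sham livers at 0 h (3 libraries each, whole liver, 8 to 10 weeks, fed ad libitum, no genotype given). Isolated hepatocytes of C57BL/6J wild type mice on a 60% high fat diet were compared with hepatocytes of chow-fed mice in the fourth (2 libraries each, 16 weeks, after a 10 h fast). The last compared whole liver of mice on a cholic acid diet and mice on chow, all with fl/fl Fxr and fl/fl Shp alleles. This experiment had 3 libraries per diet (C57BL/6J, 10 to 12 weeks, after a fast of 8 to 10 h). Both of its groups carry the floxed alleles, and no Cre is stated for either. The labels do not say that the libraries of a group came from separate mice, so p-values measure only the spread between these libraries.

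Fetal liver makes large amounts of alpha-fetoprotein and of the imprinted pair H19 and Igf2, and their expression falls after birth. The repressors Zhx2 and Zbtb20 act on Afp, and Zhx2 also on H19 and Gpc3. Several of them are switched on again in liver regeneration, in progenitor and ductular cells, and in hepatocellular carcinoma, where alpha-fetoprotein and glypican 3 serve as markers. The other genes are known from tumour tissue or early development: the surface proteins Cd24a, Ly6d and Gprc5b, the lectin Lgals1, the desaturase Scd2 and the immune ligand Raet1d.

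Levels are given in CPM (counts per 1000000 reads), after scaling the libraries of 1 experiment to each other. Reads counted to genes ranged from 13949059 to 70367874 per library, so the detection floor of 3 counts lay between 0.0426 and 0.215 CPM. Tests used edgeR's quasi-likelihood F test over all genes that passed its filter on low counts, and a gene was called at a Benjamini-Hochberg adjusted p under 0.05. In bulk RNA, more cells of a type and more RNA per cell cannot be told apart. The Shp gene Nr0b2 stood at 0.594 to 1.68 CPM in the knockout and 13.7 to 28.2 CPM in wild type, and the Fxr gene Nr1h4 at 55.7 to 65.0 CPM against 117 to 161 CPM. A library labelled corn oil (replicate 1) went against its label: Cyp2b10, the standard CAR target, stood at 3786 CPM there, against 10.3 CPM in corn oil replicate 2 and 3079 to 3465 CPM with TCPOBOP. In the floxed chow group, replicate 3 stood apart from the other libraries, with Cyp2b10 at 1.14 CPM against 27.7 and 45.7 CPM and the proliferation marker Mki67 at 5.62 CPM against 1.41 and 1.52 CPM. The share of alignments set aside as not unique was 43.2 to 44.1% in wild type and 25.5 to 26.9% in the knockout, relative to 16.6 to 26.9% over all libraries other than wild type. The hepatocyte markers summed to 93649 to 102064 CPM in the hepatocyte libraries, where markers of other liver cells were low but present.

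The genes lie at 10 separate positions of the mouse genome (GRCm38 coordinates, GENCODE M21 annotation). Afp is at chr5:90490737-90508907 on the plus strand, next to albumin. H19 (chr7:142575529-142578143) and Igf2 (chr7:142650766-142666816) lie on the minus strand of the same imprinted domain. Gprc5b is on the same chromosome at chr7:118972047-118995211, minus strand. Cd24a (chr10:43578284-43584265) and Raet1d (chr10:22360552-22374139) are on the plus strand of chromosome 10. Ly6d is at chr15:74762056-74763620 on the minus strand and Lgals1 at chr15:78926725-78930465 on the plus strand. Scd2 is at chr19:44293674-44306864, plus strand, and Gpc3 at chrX:52272426-52613950, minus strand. Of the 10 genes, 3 share the most exonic bases with other genes. How far this makes their counts uncertain is not known, because the annotation and strand setting of the counting are not given. Of the exonic bases of Igf2, 62.8% also belong to Gm49394, which has no row in the count table. Of those of Raet1d, 25.2% also belong to Raet1e, and 55.8% of its 50-base windows occur in Raet1e as well. Gprc5b shares 13.1% of its exonic bases with Iqck on the opposite strand.

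The RefSeq promoter table (GRCm38.p6) had entries for 5 of the 10 genes. Start regions are shown for the 3 of them that were called higher in the knockout, and these regions differ in composition. Each runs 5′ to 3′ on the gene's strand from 250 bases before to 50 bases after the RefSeq start, and capitals mark any match to the motifs searched.
Afp, chr5:90490464-90490763, plus strand: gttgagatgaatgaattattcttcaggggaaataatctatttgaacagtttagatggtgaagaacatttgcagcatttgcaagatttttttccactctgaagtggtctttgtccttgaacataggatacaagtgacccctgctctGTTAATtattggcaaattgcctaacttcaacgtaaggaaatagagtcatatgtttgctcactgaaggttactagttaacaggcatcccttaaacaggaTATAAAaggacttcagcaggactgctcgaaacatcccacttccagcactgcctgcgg
Gprc5b, chr7:118995162-118995461, minus strand: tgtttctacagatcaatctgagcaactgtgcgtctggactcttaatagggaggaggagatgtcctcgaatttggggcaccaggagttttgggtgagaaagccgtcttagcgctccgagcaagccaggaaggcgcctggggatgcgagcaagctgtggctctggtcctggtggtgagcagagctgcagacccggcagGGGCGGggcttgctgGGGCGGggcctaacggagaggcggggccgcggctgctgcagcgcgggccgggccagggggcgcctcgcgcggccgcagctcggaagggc
Raet1d, chr10:22361644-22361943, plus strand: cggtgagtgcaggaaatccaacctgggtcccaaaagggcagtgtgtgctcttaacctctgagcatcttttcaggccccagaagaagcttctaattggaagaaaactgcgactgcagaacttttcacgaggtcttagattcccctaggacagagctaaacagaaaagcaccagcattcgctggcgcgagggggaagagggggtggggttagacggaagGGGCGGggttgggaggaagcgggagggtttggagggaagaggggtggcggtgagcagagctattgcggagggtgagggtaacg
Both strands were searched for 4 motifs: GTTAAT, the core of the HNF1 motif; TATAAA, the TATA box; GGGCGG, the GC box; and AGGTCA, the core bound by many nuclear receptors. The Afp region held 1 GTTAAT and 1 TATAAA, the latter 30 bases before the GENCODE start, and was 40% G and C. The Gprc5b region held 2 GGGCGG (66.3% G and C) and the Raet1d region 1 GGGCGG (56.3% G and C). None of the 3 regions held AGGTCA. Over the 32851 start regions of the table, 7.10% held GTTAAT, 13.6% TATAAA, 35.7% GGGCGG and 16.3% AGGTCA. The Raet1d region lies inside the GENCODE gene, downstream of its annotated first base. A match is a description of the window, and an absent match says only that these letters are not in it.

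Loss of Fxr and Shp raised 7 of the 8 genes that could be tested (Afp, Cd24a, Ly6d, Lgals1, Scd2, Gprc5b and Raet1d), and lowered none. For comparison, 40.4% of the 13473 genes tested were called in the knockout, 21% higher and 19.4% lower. The median log2 fold change of the 8 genes was 3.49, beside -0.01 over all genes tested. The 10 genes were chosen with earlier results of these data known, so such counts and medians are descriptions. Partial hepatectomy raised 3 of 8 genes (Afp, Ly6d and Lgals1), where 30.7% of 13753 genes were called, 16.4% higher and 14.3% lower. High fat feeding raised 4 of 7 genes in hepatocytes (Ly6d, Lgals1, Scd2 and Gprc5b), where 24% of 13892 genes were called, 12.9% higher and 11.1% lower. Ly6d and Gprc5b in the knockout, and Gprc5b on the high fat diet, passed the filter on low counts through their treated libraries. The same held for Igf2 on the high fat diet, which was not called. Control libraries had at most 9 reads in each of these cases, so these genes could be tested only because they were high in the treated group. Cholic acid feeding lowered 2 of 6 genes (Lgals1 and Raet1d), where 4.77% of 12577 genes were called, 2.27% higher and 2.5% lower. TCPOBOP changed 0 of 7 genes by the edgeR test, and 0% of 12785 genes were called there. The library labelled corn oil 1, which went against its label, was 1 of the 2 controls, and values without it are given with that comparison. The median log2 fold change of the tested genes among the 10 was 0.61 after hepatectomy, 1.97 in high fat hepatocytes, -0.30 for cholic acid and -0.50 for TCPOBOP, and over all genes it lay between -0.02 and 0.01. Genes not tested had too few reads, and their counts are given with each comparison.

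**Figure D1:**
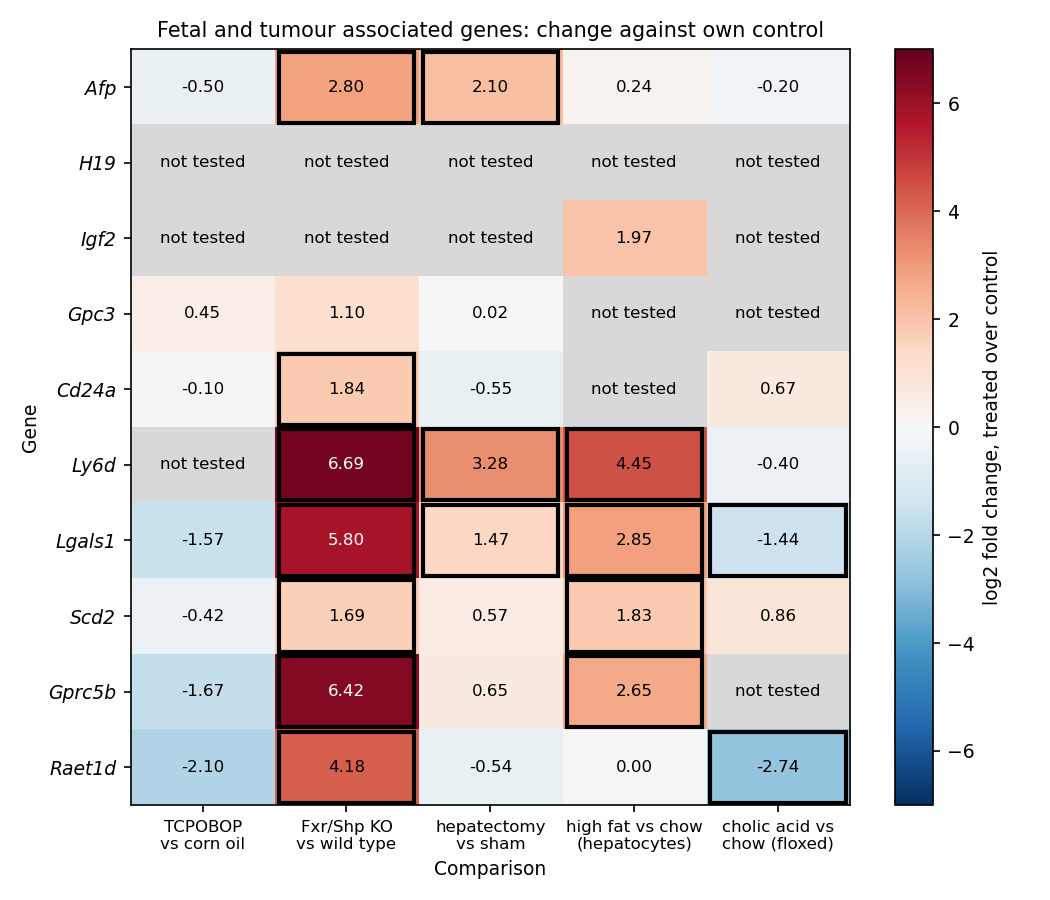
Log2 fold change (treated over control, color scale) of the 10 genes (rows) in the 5 comparisons (columns), with a black frame where edgeR's adjusted p was under 0.05. The knockout column holds 7 framed genes, all raised, and the cholic acid column 2 framed genes, both lowered.

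The double knockout comparison asks how the liver differs when both bile acid regulators are missing. Ly6d, Gprc5b, Lgals1 and Raet1d rose by 18.1-fold or more, and Afp, Cd24a and Scd2 by 3.22-fold to 6.99-fold. Ly6d, a lipid-anchored surface protein of the Ly6 family, stood at 34.2, 45.0 and 13.9 CPM in the knockout and 0.322, 0.0633 and 0.483 CPM in wild type. Every knockout library was above every wild type library. The group means were 31.0 ± 15.8 CPM and 0.290 ± 0.212 CPM (SD, n = 3 each), a 103-fold rise (log2 6.69 ± 0.61 SE, edgeR adjusted p = 8.23e-05). Wild type Ly6d rested on 6, 1 and 8 reads. Gprc5b, an orphan G protein-coupled receptor, stood at 42.1, 44.8 and 40.4 CPM against 0.483, 0.443 and 0.544 CPM. The knockout libraries were close to each other and far above wild type, an 85.5-fold rise (log2 6.42 ± 0.14, adjusted p = 3.44e-08, edgeR). Wild type Gprc5b rested on 9, 7 and 9 reads, so the size of this rise is less sure than its SE makes it look. Of the 4 Gprc5 family genes, 2 were tested, and Gprc5b was the 1 that was called.

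Lgals1, which encodes the galactoside-binding lectin galectin 1, reached 117, 127 and 107 CPM in the knockout against 2.09, 1.90 and 2.30 CPM in wild type. The groups did not overlap, and the 55.5-fold rise (log2 5.80 ± 0.13, edgeR adjusted p = 3.44e-08) was far larger than the spread within either group. Wild type was also the lowest of the 10 groups for Lgals1. Scaled over all 26 libraries, its mean was 2.02 CPM, and the other control groups had means of 4.03 to 18.4 CPM. Among the 6 galectins and galectin-related genes tested, Lgals1 included, 3 rose and 1 fell. Lgals3, a galectin of macrophages and epithelia, was among the 3 that rose, at 14.4 ± 4.40 CPM against 4.16 ± 1.01 CPM (SD, n = 3). Raet1d, a ligand of the natural killer cell receptor NKG2D, stood at 67.6, 71.4 and 76.6 CPM against 3.97, 3.73 and 4.17 CPM. That is an 18.1-fold rise (log2 4.18 ± 0.11, edgeR adjusted p = 5.54e-08), with no overlap. Raet1e, the ligand gene that shares exons with it, moved the same way, from 1.77 to 2.21 CPM in wild type up to 29.4 to 34.9 CPM in the knockout. Reads from their shared exons cannot be told apart, and Raet1a, Raet1b and Raet1c have no row in the table.

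Rises were smaller for the remaining called genes. Afp stood at 3.29, 2.37 and 7.59 CPM in the knockout and 0.591, 0.696 and 0.604 CPM in wild type. All 3 knockout libraries were above wild type but spread widely, with replicate 3 the highest. The rise was 6.99-fold (log2 2.80 ± 0.49, edgeR adjusted p = 0.00231), and without knockout replicate 3 it was 2.17 on the log2 scale (adjusted p = 0.000472). Cd24a, a surface glycoprotein of progenitor and ductular cells, was at 5.53, 6.04 and 3.32 CPM against 1.29, 1.46 and 1.39 CPM, without overlap (3.59-fold, log2 1.84 ± 0.27, adjusted p = 0.00105). Scd2, the stearoyl-CoA desaturase of early development and brain, was at 14.1 to 18.7 CPM in the 3 knockout libraries against 4.51, 5.82 and 4.53 CPM. Its 3.22-fold rise also left the groups apart (log2 1.69 ± 0.17, edgeR adjusted p = 0.000119).

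The imprinted pair and glypican 3 were low in both genotypes. H19, a non-coding RNA that hosts a microRNA, had 14, 10 and 6 reads in the knockout and 1, 0 and 0 in wild type, and was left out by the filter. With no filter on low counts it was called higher (edgeR adjusted p = 0.00315). Igf2, the fetal growth factor of the same domain, had 9, 8 and 4 reads in the knockout and 6, 7 and 7 in wild type, so the groups overlapped at a few reads each. Gpc3, the surface proteoglycan used as a carcinoma marker, stood at 0.960, 1.16 and 2.63 CPM against 0.268, 1.83 and 0.181 CPM. The groups overlapped through wild type replicate 2 (log2 1.10 ± 0.73, edgeR adjusted p = 0.263), and without that library the value was 2.77 (adjusted p = 0.0179).

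**Figure D2:**
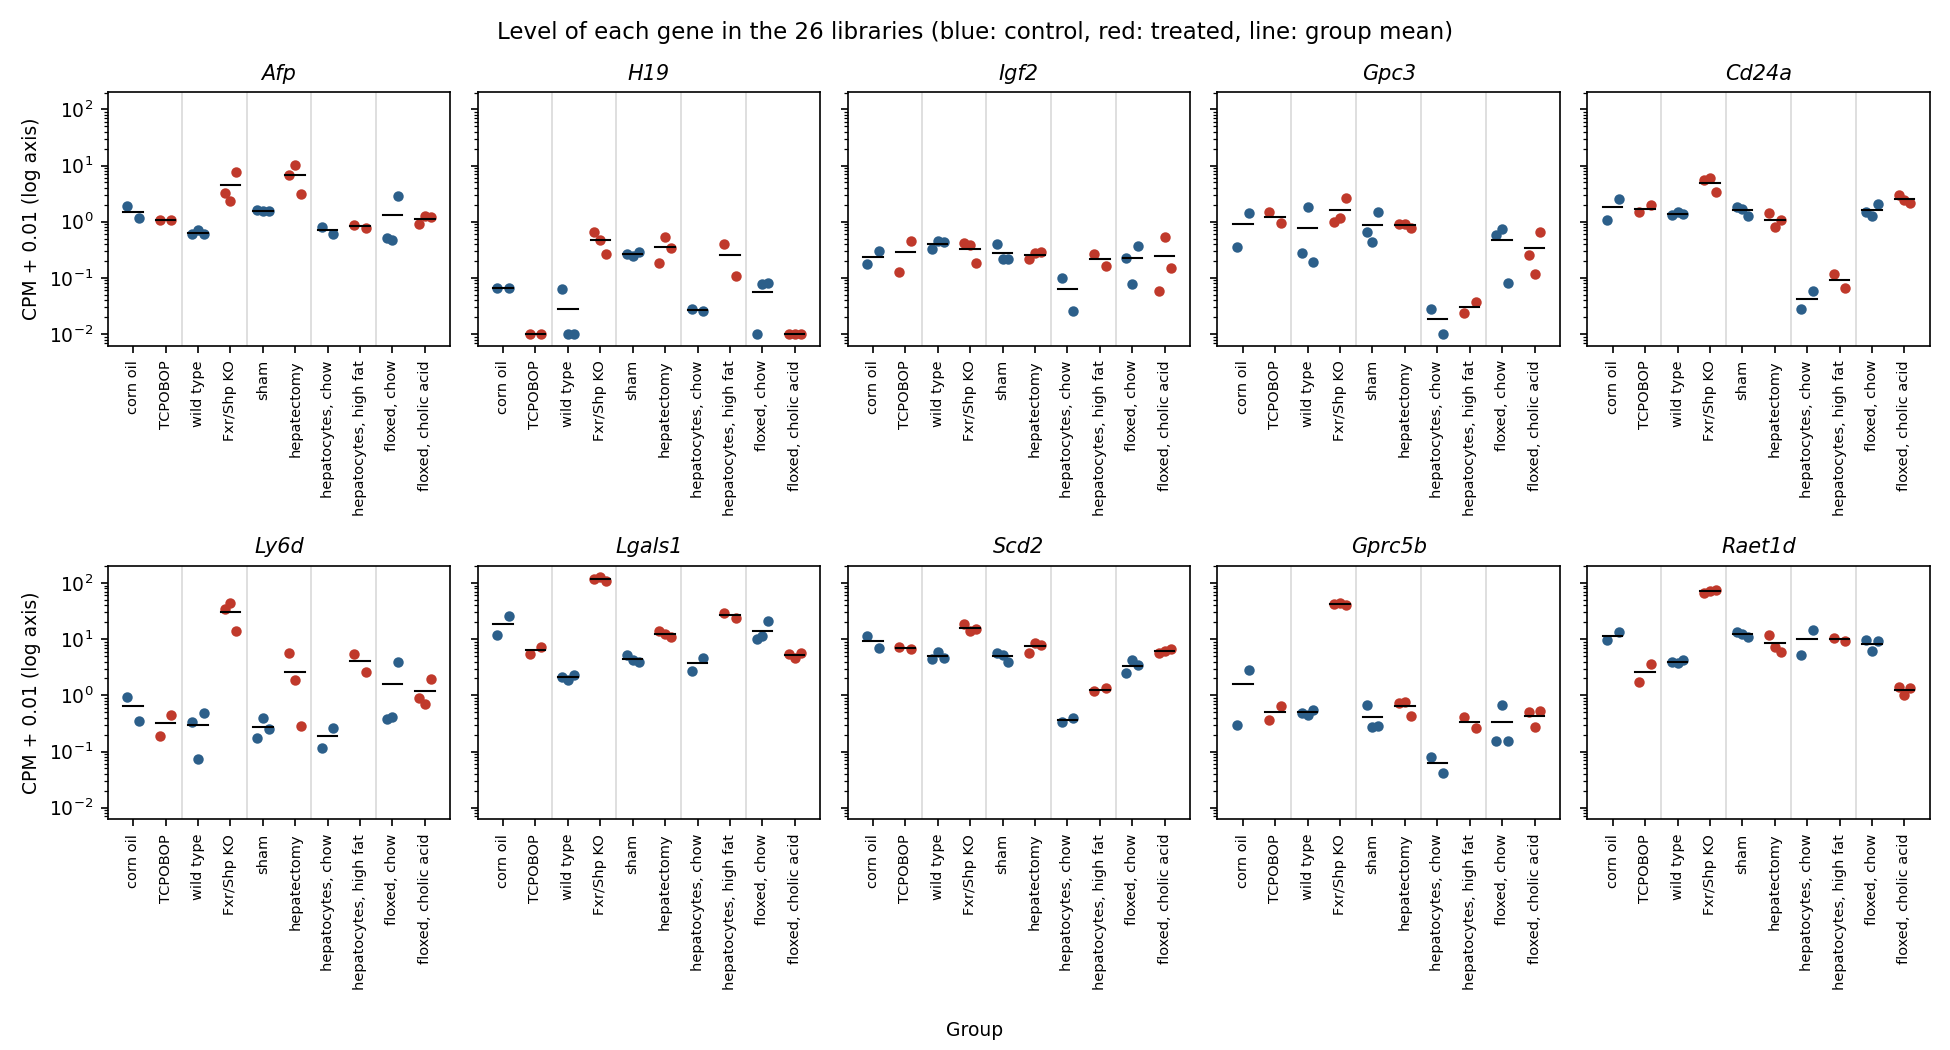
CPM plus 0.01 on a log axis for each of the 10 genes in the 26 libraries, grouped along the horizontal axis, with control libraries in blue, treated libraries in red and group means as lines. The knockout libraries stand far above the other groups for Ly6d, Lgals1, Gprc5b and Raet1d, while Igf2 stays under 1 CPM throughout.

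Other genes of these pathways also moved in the knockout. For all genes tested, the shares called were 40.4% in either direction, 21% higher and 19.4% lower. Among 13 further oncofetal genes tested, 10 rose and 1 fell (median log2 fold change 1.64). The summed level of that list, in which abundant genes weigh most, was lower in every knockout library (531 to 604 CPM against 783 to 840 CPM). They included Igf2bp3, an RNA-binding protein of fetal tissue (9.72 ± 2.42 against 0.422 ± 0.238 CPM, SD, n = 3), and the hexokinase gene Hk2 of fetal and tumour glycolysis (6.60 ± 1.29 against 0.534 ± 0.0925 CPM). Of the 14 transcription factors known at the Afp locus, none rose and 7 fell (median -0.42). Among those named, Cebpb fell the most, from 207 ± 36.4 to 73.1 ± 24.7 CPM. The repressor gene Zbtb20 fell from 79.2 ± 4.10 to 50.9 ± 4.59 CPM and the repressor gene Zhx2 from 21.4 ± 4.03 to 13.2 ± 1.90 CPM (SD, n = 3). Hnf4a, an activator of hepatocyte genes, had a log2 fold change of -0.78 (adjusted p = 0.00185, edgeR). Of the 4 albumin family genes, Afp and Afm were called higher, and Afm rose from 126 ± 8.67 to 205 ± 2.83 CPM.

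In the imprinted gene network 4 of 12 tested genes rose and none fell. Over all genes tested 40.4% were called, 21% higher and 19.4% lower. The 4 genes included Grb10, an adaptor that restrains growth factor signalling (8.23 ± 1.28 against 2.35 ± 0.0545 CPM). The IGF system had 2 of 14 genes higher and 4 lower, a share near that over all genes. Igf2r, the clearance receptor of IGF2, rose by 0.98 on the log2 scale, while Igf1, the main IGF of adult liver, fell by 1.29 and the binding protein gene Igfbp2 fell by 2.36. Of 10 desaturase and elongase genes, Scd2 included, 8 rose and 2 fell. The adult desaturase Scd1, a neighbour of Scd2, rose from 450.2 ± 91.1 to 6012 ± 1062 CPM, whereas the elongase Elovl3 fell by 9.09 on the log2 scale. Of the 5 tested genes of the Ly6 and uPAR family 4 rose, Ly6d among them. Of 3 tested NKG2D ligand and receptor genes, Raet1d and Raet1e rose.

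Markers of other cell types and of dividing cells moved with the knockout as well. Ductular markers were called higher for 7 of 11 tested genes and lower for none, and their summed level was 88.2 to 165 CPM in the knockout against 43.9 to 63.0 CPM in wild type. Stellate cell and fibroblast markers were higher for 8 of 10 genes, at 467 to 525 CPM summed against 200.1 to 341 CPM. Proliferation genes were higher for 7 of 8, at 15.5 to 17.1 CPM summed against 5.13 to 5.96 CPM. Macrophage markers were higher for 2 and lower for 1 of 10 genes (353 to 705 CPM against 240.1 to 539 CPM). Endothelial markers were higher for 3 of 10 and lower for none (193 to 284 CPM against 111 to 205 CPM). Over all genes tested 40.4% were called, 21% higher and 19.4% lower. Of 3 tested lymphocyte and neutrophil markers S100a8 rose, from 0.408 to 14.6 CPM, and the list summed to 16.9 to 36.0 CPM against 6.20 to 9.49 CPM. Hepatocyte markers were lower for 5 of 10 genes and higher for none, at 69549 to 95007 CPM summed against 101792 to 131751 CPM. The part of these cell types, and of the larger share of non-unique alignments in wild type, in the rises of the 10 genes was not tested.

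Partial hepatectomy, which removes liver lobes and makes the remaining hepatocytes divide, asks what the regenerating liver expresses. Afp, Lgals1 and Ly6d were called higher at 48 h, and the other tested genes were not called. Afp stood at 6.85, 10.1 and 3.10 CPM after hepatectomy and 1.60, 1.52 and 1.54 CPM in sham livers. All hepatectomy libraries were above all sham libraries (4.27-fold, log2 2.10 ± 0.40, edgeR adjusted p = 0.00578). Lgals1 was at 13.8, 12.4 and 10.8 CPM against 5.16, 4.27 and 3.91 CPM, also without overlap (2.77-fold, log2 1.47 ± 0.16, adjusted p = 0.000368). Ly6d was at 5.74, 1.86 and 0.276 CPM against 0.163, 0.389 and 0.240 CPM. Hepatectomy replicate 3 lay within the sham range, so the groups overlapped (log2 3.28 ± 0.99, edgeR adjusted p = 0.0375). The Ly6d call was lost in 5 of the 6 fits that left out 1 library, and without hepatectomy replicate 1 the value was 1.98 (adjusted p = 0.0995).

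Scd2 and Raet1d overlapped between the groups. Scd2 stood at 5.68, 8.67 and 7.88 CPM after hepatectomy and 5.75, 5.32 and 3.94 CPM in sham livers (log2 0.57 ± 0.21, edgeR adjusted p = 0.0761). Without hepatectomy replicate 1 its value was 0.73 (adjusted p = 0.0319). Raet1d stood at 12.1, 7.25 and 5.83 CPM against 13.7, 12.3 and 10.8 CPM (log2 -0.54 ± 0.25, adjusted p = 0.141), and without the same library it was called lower at -0.90 (adjusted p = 0.00826). Cd24a was at 0.796 to 1.40 CPM against 1.23 to 1.80 CPM (adjusted p = 0.180), Gprc5b at 0.415 to 0.737 CPM against 0.269 to 0.653 CPM (adjusted p = 0.305), and Gpc3 at 0.774 to 0.903 CPM against 0.418 to 1.47 CPM (adjusted p = 0.973). H19 had 6, 18 and 12 reads after hepatectomy and 8 in each sham library. Igf2 had 7, 9 and 10 reads against 12, 7 and 6. Both overlapped between the groups.

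All 10 proliferation genes rose after hepatectomy, at 410 to 557 CPM summed against 7.23 to 14.7 CPM in sham livers. Of 15 further oncofetal genes tested, 5 rose and none fell (median 0.53, beside 0.01 over all genes). Over all genes 30.7% were called, 16.4% higher and 14.3% lower. Golm1, a Golgi protein raised in liver disease, rose from 2.06 ± 0.386 to 6.78 ± 0.763 CPM (SD, n = 3), and Ldha, lactate dehydrogenase A, from 532 ± 60.3 to 1234 ± 271 CPM. Of the 14 factors of the Afp locus 1 rose and 3 fell, a share near that over all genes. Trp53 rose (log2 0.40), Zhx1 and Cebpa fell (log2 -0.39 and -0.30), and Zbtb20 fell from 108 ± 25.9 to 65.0 ± 5.57 CPM. In the IGF system none of 14 tested genes rose and 8 fell, Igfbp1 the most among those named (log2 -3.13). Ulbp1, another NKG2D ligand, rose from 0.0769 ± 0.0408 to 2.32 ± 1.00 CPM, and it was the 1 gene of 4 tested in that list that was called. Scd1 fell from 16228 ± 4644 to 4412 ± 1350 CPM. Ductular markers were higher for 1 of 10 genes and overlapped in sum (42.7 to 61.0 CPM against 46.2 to 62.0 CPM), and stellate markers were higher for 3 of 10 (228 to 258 CPM against 179.5 to 235 CPM). Hepatocyte markers were lower for 5 and higher for 1 of 10 genes, at 102634 to 114335 CPM summed against 135823 to 138305 CPM. Of 10 macrophage markers Marco rose, from 3.87 to 15.6 CPM, and 2 of 10 endothelial markers fell, with overlapping sums for both lists. The part of these cells, and of dividing cells, in the rises of Afp, Lgals1 and Ly6d was not tested.

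The diet comparison in hepatocytes asks what high fat feeding changes in this cell type. Ly6d, Lgals1, Scd2 and Gprc5b rose. Ly6d stood at 5.47 and 2.62 CPM on the high fat diet and 0.107 and 0.252 CPM on chow, a 21.9-fold rise (log2 4.45 ± 0.54, edgeR adjusted p = 0.00683). Lgals1 was at 29.8 and 23.7 CPM against 2.73 and 4.65 CPM (7.21-fold, log2 2.85 ± 0.26, adjusted p = 0.00382). Scd2 was at 1.18 and 1.32 CPM against 0.321 and 0.378 CPM (3.56-fold, log2 1.83 ± 0.27, edgeR adjusted p = 0.0105). For these 3 genes the diets did not overlap and the call was kept when any 1 library was left out. Gprc5b was at 0.403 and 0.248 CPM against 0.0714 and 0.0315 CPM, with 4 and 2 reads on chow (log2 2.65 ± 0.59, adjusted p = 0.0283). Its call was lost in all 4 fits that left out 1 library, where the adjusted p was 0.0507 to 0.154.

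Afp and Raet1d were not called in hepatocytes. Afp stood at 0.861 and 0.773 CPM on the high fat diet and 0.785 and 0.599 CPM on chow, and the groups overlapped (log2 0.24 ± 0.28, edgeR adjusted p = 0.551). Raet1d was at 10.7 and 9.44 CPM against 5.30 and 14.8 CPM, and the chow libraries lay on either side of the high fat libraries. Over all 4 libraries the adjusted p was 0.998 (edgeR). Its fitted difference was 0.92 without chow replicate 2 (adjusted p = 0.0127) and -0.56 without chow replicate 1 (adjusted p = 0.0406), so 1 library decided its sign. Igf2 had 19 and 11 reads on the high fat diet and 5 and 1 on chow (log2 1.97 ± 0.75, edgeR adjusted p = 0.107). H19 had 29 and 7 reads against 1 and 1, was left out by the filter, and had an adjusted p of 0.0485 with no filter (edgeR) and 0.0508 by DESeq2. Cd24a had 8 and 4 reads against 1 and 3, and Gpc3 had 1 and 2 against 1 and 0, both near the detection floor.

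Markers of hepatocytes, of other cells and of dividing cells moved with the diet in these preparations. For all genes tested, the shares called were 24% in either direction, 12.9% higher and 11.1% lower. Hepatocyte markers were lower for 3 of 10 genes (93649 and 97268 CPM summed against 100214 and 102064 CPM), and proliferation genes higher for 4 of 8 tested (8.21 and 9.80 CPM against 4.09 and 5.30 CPM). Of the lymphocyte and neutrophil markers 1 was tested, Ptprc, which rose, and the list summed to 2.19 and 2.50 CPM against 0.660 and 1.39 CPM. Endothelial markers rose for all 10 genes (137 CPM summed in both high fat libraries, 55.5 and 56.4 CPM on chow), stellate markers for 7 of 9 tested (38.9 and 42.6 CPM against 9.97 and 16.1 CPM) and macrophage markers for 6 of 10 (78.3 and 89.9 CPM against 49.5 and 50.7 CPM). Ductular markers rose for 1 of 5 tested, Krt23, with summed levels of 30.5 and 53.1 CPM against 22.3 and 22.8 CPM, and Cftr was at 0 in all 4 libraries. The part of these cells in the rises of Ly6d, Lgals1, Scd2 and Gprc5b was not tested. Of 10 further oncofetal genes tested 4 rose and none fell, while the list's summed level was lower on the high fat diet (601 and 653 CPM against 720 and 805 CPM). Pkm, a pyruvate kinase gene of proliferating tissue, was at 5.25 ± 0.222 CPM against 1.88 ± 0.180 CPM (SD, n = 2). In the imprinted network 4 genes rose and 4 fell of 12 tested, and Meg3, a maternally expressed non-coding RNA, fell from 3.48 ± 1.11 to 0.102 ± 0.0463 CPM. Of the factors at the Afp locus 1 rose and 4 fell. The glypican Gpc1 rose from 17.2 ± 2.16 to 64.6 ± 9.07 CPM, and Igfbp5, an IGF binding protein, from 2.14 ± 0.583 to 21.2 ± 6.36 CPM.

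Cholic acid feeding asks how a bile acid load acts on the liver of the floxed mice. Raet1d and Lgals1 fell, and no other tested gene of the 10 was called. Raet1d stood at 1.39, 1.00 and 1.32 CPM on cholic acid and 9.73, 6.09 and 9.17 CPM on chow. The groups were well apart (6.69-fold lower, log2 -2.74 ± 0.30, edgeR adjusted p = 0.00366), and the call was kept in each of the 6 fits without 1 library. Raet1e, which shares exons with it, was at 0.892, 0.950 and 1.69 CPM against 2.54, 0.937 and 2.91 CPM, and its groups overlapped. Lgals1 was at 5.55, 4.54 and 5.60 CPM against 9.94, 11.2 and 21.4 CPM, without overlap (2.71-fold lower, log2 -1.44 ± 0.31, adjusted p = 0.0387). Its call was lost in 4 of the 6 fits without 1 library, and without chow replicate 3, the library that stood apart, it was -1.01 (adjusted p = 0.0189).

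Scd2 and Cd24a were higher in every cholic acid library than in every chow library but were not called. Scd2 stood at 5.70, 6.18 and 6.63 CPM against 2.47, 4.22 and 3.48 CPM (log2 0.86 ± 0.27, edgeR adjusted p = 0.106), and Cd24a at 3.02, 2.43 and 2.16 CPM against 1.45, 1.27 and 2.06 CPM (log2 0.67 ± 0.33, adjusted p = 0.271). Afp was at 0.892, 1.27 and 1.22 CPM on cholic acid and 0.508, 0.468 and 2.91 CPM on chow. Chow replicate 3 was the highest of the 6 libraries for Afp and also for Ly6d, which stood at 0.892, 0.686 and 1.98 CPM against 0.363, 0.402 and 3.98 CPM. The difference of Afp was -0.20 with that library and 1.20 without it (edgeR adjusted p = 0.891 and 0.111), and that of Ly6d -0.40 and 1.62 (adjusted p = 0.819 and 0.130). Gpc3, Gprc5b, Igf2 and H19 were left out by the filter. Gprc5b had 5 to 11 reads on cholic acid and 2 to 10 on chow, Gpc3 2 to 14 and 1 to 11, Igf2 1 to 10 and 1 to 5, and H19 0 and at most 1. At this depth no difference was detectable for them.

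Some other genes of the lists moved with cholic acid, where 2.27% of all genes tested were called higher and 2.5% lower. Of 12 further oncofetal genes tested 3 rose and none fell: Prom1, a surface protein of progenitor cells (14.5 ± 7.62 against 0.557 ± 0.391 CPM, SD, n = 3), Golm1 and Hmga1. The factors of the Afp locus showed 2 lower genes and none higher of 14, Foxa3 and Cebpa, both hepatocyte factors. Proliferation genes rose for 3 of 10 tested and were higher in sum on cholic acid (43.3 to 104 CPM against 8.06 to 27.9 CPM). Ductular markers had no called gene among 9 tested, at 67.0 to 83.0 CPM summed against 61.5 to 62.7 CPM on chow. Stellate and macrophage markers overlapped in sum between the diets. The part of these cells, and of dividing cells, in the falls of Raet1d and Lgals1 was not tested.

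The TCPOBOP comparison asks what CAR activation changes, and 1 of its 2 control libraries, labelled corn oil 1, had a Cyp2b10 level that went against its label. No gene of the 10 was called by edgeR, where 2 of 7 tested had an unadjusted p under 0.05. Over all genes 0 were called, 751 had an unadjusted p under 0.05, and DESeq2 called 102. Raet1d stood at 1.70 and 3.58 CPM in the libraries labelled TCPOBOP and 9.55 and 13.2 CPM in those labelled corn oil, lower without overlap (log2 -2.10 ± 0.42, edgeR adjusted p = 0.683, DESeq2 adjusted p = 0.00260). Its value was -2.32 without the library labelled corn oil 1 (adjusted p = 0.00698) and -1.86 without corn oil 2 (adjusted p = 0.0458). Lgals1 was at 5.47 and 7.29 CPM against 11.8 and 26.2 CPM (log2 -1.57 ± 0.43, edgeR adjusted p = 0.812). Its value was -2.03 without the library labelled corn oil 1 (adjusted p = 0.00094) and -0.88 without corn oil 2 (adjusted p = 0.122). With 1 control library left, these fits assume that it varies like the others.

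Gprc5b was at 0.353 and 0.628 CPM in the libraries labelled TCPOBOP and 0.284 and 2.86 CPM in those labelled corn oil. Its direction turned with the control library, from -2.53 without corn oil 1 (edgeR adjusted p = 0.0206) to 0.77 without corn oil 2 (adjusted p = 0.783). Afp stood at 1.06 and 1.07 CPM against 1.88 and 1.14 CPM, Scd2 at 7.23 and 6.60 CPM against 11.5 and 6.98 CPM, Cd24a at 1.47 and 1.95 CPM against 1.08 and 2.58 CPM, and Gpc3 at 1.47 and 0.942 CPM against 0.341 and 1.43 CPM. All 4 had an adjusted p of 0.934 or more. Ly6d had 3 and 7 reads against 16 and 6, Igf2 2 and 7 against 3 and 5, and H19 0 in both against 1 in both. None of the other lists had a called gene in this comparison.

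**Figure D3:**
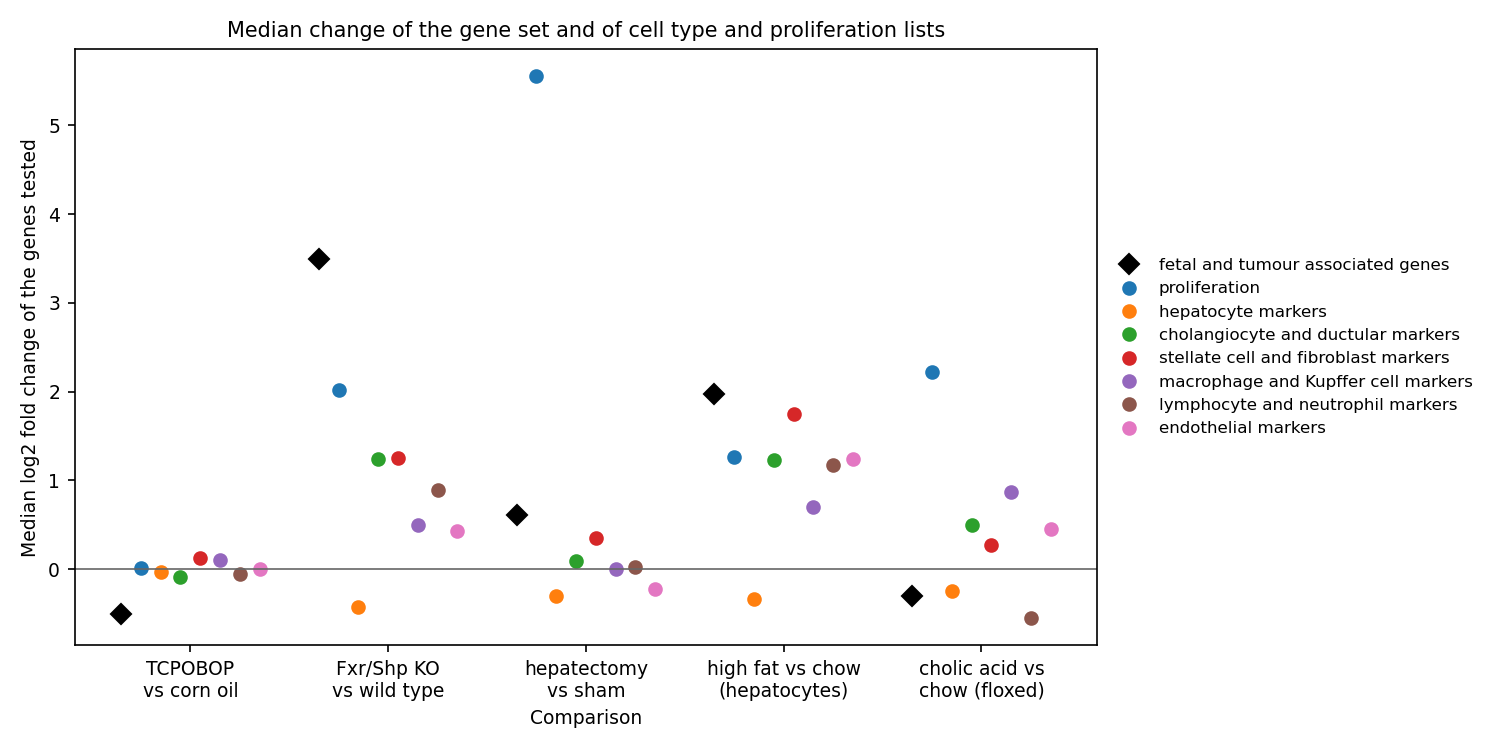
Median log2 fold change of the tested genes (vertical axis) for the 10 fetal and tumour associated genes (black diamonds) and for proliferation and cell type marker lists (colored circles) in the 5 comparisons. The black diamond is at 3.49 in the knockout and -0.30 with cholic acid, and proliferation genes are highest after hepatectomy.

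Differences between effects were tested for the 3 whole liver comparisons with 3 libraries per group, as an interaction in edgeR. The knockout effect minus the cholic acid effect was above 0 and called for 5 of 8 tested genes, where 13.9% of all genes tested were called, 7.18% above 0 and 6.74% below. The differences were 7.24 ± 0.37 for Lgals1, 7.10 ± 1.22 for Ly6d, 6.92 ± 0.27 for Raet1d, 6.03 ± 0.68 for Gprc5b and 3.00 ± 0.90 for Afp on the log2 scale (SE). Lgals1 and Raet1d were raised in one experiment and lowered in the other. The Afp difference (adjusted p = 0.0434) was 1.60 without floxed chow replicate 3 (adjusted p = 0.172), and its call was lost in 9 of the 12 fits that left out 1 library. Cd24a and Scd2 were not called (1.18 ± 0.42 and 0.83 ± 0.29, adjusted p = 0.0790 and 0.0793).

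The hepatectomy effect minus the knockout effect was below 0 and called for 6 of 10 tested genes, where 31.5% of all genes tested were called, 15.4% below 0 and 16% above. Gprc5b (-5.79 ± 0.47), Raet1d (-4.74 ± 0.30) and Lgals1 (-4.34 ± 0.20) differed most, followed by H19 (-3.83 ± 1.09, edgeR adjusted p = 0.0172), Cd24a (-2.41 ± 0.40) and Scd2 (-1.13 ± 0.28). The H19 value rests on 1 wild type read, and its call was lost without wild type replicate 2 or 3 (adjusted p = 0.0507 and 0.0521). For Afp the effects of knockout and hepatectomy were not shown to differ (-0.73 ± 0.71, adjusted p = 0.470), and for Ly6d the difference was -3.45 ± 1.63 (adjusted p = 0.125). The hepatectomy effect minus the cholic acid effect was called for 2 of 8 tested genes, Lgals1 (2.91 ± 0.37, edgeR adjusted p = 0.000536) and Raet1d (2.20 ± 0.40, adjusted p = 0.00426), both above 0, where 13% of all genes tested were called, 8.01% above 0 and 5.01% below. The hepatectomy experiment also differed from the others in strain, and the cholic acid experiment in fasting, which cannot be told apart from the treatments here.

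**Figure D4:**
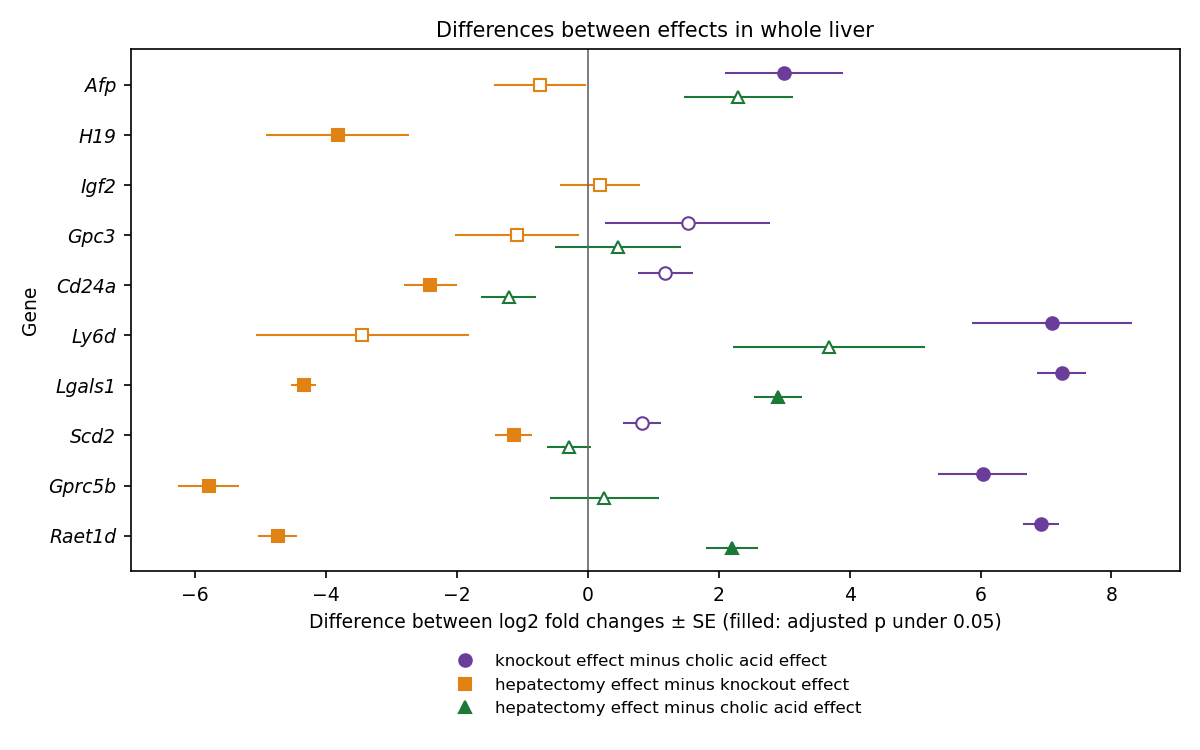
Difference between the log2 fold changes of 2 whole liver experiments (horizontal axis, with SE) for each of the 10 genes, with filled symbols where edgeR's adjusted p was under 0.05. Knockout minus cholic acid lies far to the right for Ly6d, Lgals1, Gprc5b and Raet1d, and hepatectomy minus knockout far to the left for Lgals1, Gprc5b and Raet1d.

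Levels across all groups were compared on a scale common to the 26 libraries, as a description. The knockout had the highest mean for Ly6d, Lgals1, Scd2, Gprc5b, Raet1d, Cd24a, Gpc3 and H19. For the first 6 of these, every knockout library was above every other library of the series, while Gpc3 and H19 overlapped other groups. Afp was highest after hepatectomy, with hepatectomy libraries at 3.03 to 9.88 CPM overlapping knockout libraries at 2.25 to 7.20 CPM. Igf2 was highest in wild type (0.310 to 0.421 CPM), within the range of floxed cholic acid livers (0.0505 to 0.539 CPM). Wild type had the lowest mean of the 10 groups for Afp (0.606 CPM) and Lgals1 (2.02 CPM, beside 5.32 CPM in cholic acid livers). Raet1d in wild type had a mean of 3.81 CPM, and the other control groups had means of 8.48 to 12.0 CPM. For Raet1d the next group below the knockout was sham liver at 10.5 to 13.5 CPM, which overlapped the corn oil, hepatectomy and both hepatocyte groups. Lgals1 in high fat hepatocytes (26.3 and 33.3 CPM) was second to the knockout (101 to 121 CPM) and above the libraries labelled corn oil (11.4 and 25.4 CPM, the former with the Cyp2b10 level that went against its label).

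The hepatocyte preparations were the lowest groups for 3 of the genes. Cd24a stood at 0.0194 to 0.120 CPM in the 4 hepatocyte libraries, below every whole liver library, the lowest of which was 0.783 CPM. Scd2 stood at 0.348 to 1.47 CPM there, and the lowest whole liver library was 2.52 CPM. Gpc3 reached at most 0.0306 CPM in hepatocytes, and its lowest whole liver value was 0.0725 CPM, which rested on 1 read. Raet1d was at 5.75 to 16.2 CPM in hepatocytes, inside the range of the whole livers. Cell isolation, age, fasting and depth differed together between these groups and cannot be told apart.

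Genes with the most similar pattern were ranked by Pearson's r over the 26 libraries, on log2 levels relative to the own control group, among 11396 genes. The points share libraries, depth and the same knockout samples, so the values are a description. Gprc5b was most like Rims4 (0.97) and the sulfotransferase genes Sult2a2 (0.97) and Sult2a6 (0.96). Lgals1 was most like Mogat1, an acyltransferase of triglyceride synthesis (0.96), Lbh (0.95) and Cyp2a22 (0.95). Raet1d was most like Gamt (0.96), Acsl5 (0.94) and Fitm1 (0.93). Ly6d was most like S100a11 (0.93), Anxa5 (0.93) and Lgals1 itself (0.93). Afp was most like Snx5 (0.93), A2ml1 (0.91) and Scamp5 (0.88). Cd24a was most like the desaturase Scd1 (0.90), Il3ra (0.90) and Acaca, the first enzyme of fatty acid synthesis (0.89), and Scd2 most like Stk10 (0.93), Nid1 (0.92) and Selenon (0.91). Gpc3 and Igf2, which are low, reached no more than 0.78 with Fmod and 0.71 with Taco1. H19 had at least 3 reads in 11 of 26 libraries and was not ranked. Among the 10 genes themselves, r of Igf2 lay between -0.36 (with Gpc3) and 0.08 (with its neighbour H19).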

How the data were processed

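The authors deposited 1 table of raw read counts per gene, with 5 summary lines that were left out, and each column was matched to its sample by title. Per the submitters' processing notes, the tools were bcl2fastq 2.17.1.14, Trimmomatic, STAR 2.4.2a, Picard 1.119 and HTSeq, with the builds GRCm38 and mm10. The annotation and strand setting of the counting are not given in the sources used here. Per the labels' protocols, libraries were made with a stranded mRNA kit. Reads not assigned to a single gene were 23.0 to 48.6% per library.

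Symbols were matched by Ensembl identifier (47224 of 47643). Each comparison was fitted on its own groups with edgeR 4.0.16 (R 4.3.3, limma 3.58.1): filterByExpr defaults (minimum count 10, minimum total 15), TMM scaling, quasi-likelihood F test and Benjamini-Hochberg adjustment over all genes tested. SE was taken as the size of the fitted log2 change over the square root of F. This is an approximation, and it can be too small for large changes from few reads. Ranks of similar pattern used log2(CPM + 0.5) and genes with a mean of at least 1 CPM. Of each further gene list, counts are given and the up to 4 called genes with the largest change and an average log2 CPM of at least 0 could be named. The fitting was tested on simulated counts. Alternatives were DESeq2 1.42.0 (size factors, Wald test), other filters, all 26 libraries together, a replicate block and leaving out each library. The genes, lists and tests were chosen with earlier results of these data known.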

Additional observations from a re-analysis of the deposited data

How the results depend on the processing

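Scaling by DESeq2 size factors changed no direction and no call among the results for the 10 genes. Counts of called genes among the 10 moved by more than 1.5 times in 3 results. Beside the single calls whose changes the report gives, Scd2 with cholic acid was called in a fit of all 26 libraries (adjusted p = 0.0101). Without 1 library, Cd24a and Scd2 gained a call for knockout minus cholic acid, Gpc3 and Ly6d for hepatectomy minus knockout, and Cd24a for hepatectomy minus cholic acid. For TCPOBOP the count of 0 became 1 by DESeq2's Wald test. It also moved when 1 library was left out, which leaves 1 library in a group. For cholic acid it was 1 to 2 over the fits without 1 library. For the hepatectomy effect minus the cholic acid effect it rose from 2 to 5 by DESeq2's Wald test and to 4 with no filter on low counts. Uncalled values changed sign as follows, on the log2 scale. With 1 library left out, TCPOBOP values ranged from -0.59 to 0.66 for Cd24a, -0.24 to 1.81 for Gpc3 and -2.53 to 0.77 for Gprc5b. Gpc3 after hepatectomy ranged from -0.31 to 0.67, Raet1d on the high fat diet from -0.56 to 0.92, and with cholic acid Afp from -0.60 to 1.20 and Ly6d from -0.98 to 1.62. Among the differences between effects, Igf2 ranged from -0.079 to 0.42 for hepatectomy minus knockout, and for hepatectomy minus cholic acid Gpc3 ranged from -0.057 to 1.38 and Gprc5b from -0.90 to 0.80. Raet1d on the high fat diet was also 0.00054 with a mean count of at least 10 and 0.024 in a single fit of all 26 libraries.

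Counts over all genes moved by more than 1.5 times. For TCPOBOP 0 became 102 (Wald test), 9 (26 libraries), and 1233 and 413 without the libraries labelled corn oil 1 and 2. For hepatectomy 4225 became 2554 and 2575 without sham replicates 2 and 3. For the high fat diet 3333 became 1735 (26 libraries), and 1141 and 1793 without high fat replicates 1 and 2. For cholic acid 600 became 1379 (Wald test), 955 (no filter), 3132 (26 libraries) and 189 to 1345 without 1 library. The cause was not tested.

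Replicate numbers are shared between groups but were not taken as pairs, since same-numbered libraries did not deviate together in every pair (correlations over genes of -0.198 to 0.158). In the cholic acid comparison each library correlated best with its own number (0.0975 to 0.158). Same-numbered libraries were also at 0.121 for TCPOBOP and 0.13 for the high fat diet, against -0.121 and -0.13 for other pairs. With 2 libraries per group such values can differ only in sign. With a replicate block, Afp and Ly6d with cholic acid became 0.15 and 0.088 and Raet1d on the high fat diet 0.16, all uncalled. Raet1d after hepatectomy became called at -0.60 (adjusted p = 0.0491), Ly6d for hepatectomy minus knockout at -3.63 (adjusted p = 0.0474), and the Afp difference of knockout and cholic acid lost its call at 2.55 (adjusted p = 0.0727). The block changed no other call among the 10 genes. H19 and Igf2 had at most 29 reads in any library, which limits both.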
